A study of Homo sapiens with 19 samples.

Results

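The retinoblastoma protein RB was mapped by chromatin immunoprecipitation with sequencing (ChIP-seq) in VCaP and C4-2 cells, and 4960 RB intervals were strong in VCaP and missing from C4-2. They were chosen from the 17026 intervals of the VCaP list by 2 conditions: a −log10 q of at least 5 in the authors' list, and no overlap of even 1 base with the 9146 RB intervals of C4-2. They made up 29.1% of the VCaP list, and 55.0% of its 9025 intervals with that −log10 q. Of the whole VCaP list, 69.8% had no C4-2 counterpart; both shares follow from the choice. The other 4065 of these, which overlapped a C4-2 interval, are called strong shared sites here. The 6932 VCaP intervals without a C4-2 counterpart and with a lower −log10 q are called weak VCaP-only sites.

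VCaP and C4-2 are established prostate cancer cell lines, and both were grown without treatment in medium with 5% charcoal-stripped serum, DMEM for VCaP and RPMI 1640 for C4-2. Medium and line therefore cannot be told apart. RB was mapped in 2 C4-2 libraries and 1 VCaP library. V5-tagged E2F1 was mapped in C4-2 lines with a tetracycline-controlled gene, as wild type (WT) or as K185R, a mutant with arginine in place of a lysine. The level of the tagged protein with or without doxycycline is not given by the lists, and WT and K185R means below pool both. Each V5 group had 2 libraries: untreated, doxycycline (0.25 ug/ml for 3 days), the LSD1 inhibitor GSK2879552 (50 uM for 24 hours), or doxycycline and then GSK2879552. V5 list names use siNTC and siRB for the groups labelled untreated and doxycycline, and group names here follow the labels. Each group is represented by 1 list of intervals, so its values carry no replicate error. No V5 library came from VCaP cells.

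RB is the founding pocket protein. In its unphosphorylated form it binds E2F transcription factors at promoters of cell cycle genes and holds them inactive, and phosphorylation by cyclin-dependent kinases releases them. LSD1 is a histone lysine demethylase that is known mainly as a transcriptional corepressor. Positions below are those of the hg19 build. Gene positions and sequence of that build were not used here, so sites are named by position alone.

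The strong VCaP-only sites lay between weak and strong shared sites in strength; the choice set only that they exceeded the weak ones. Their median fold enrichment (reads at the summit over the local background) was 6.19, against 7.01 at strong shared sites and 4.76 at weak VCaP-only sites. The median summit held 14 reads, with quartiles of 12 and 17 and a range of 9 to 163. At strong shared sites the median was 18 reads. The median width was 320 bases, against 412 bases at strong shared sites. Most of the strong VCaP-only sites were close to the threshold: 2693 of them (54.3%) had a −log10 q from 5 to 7, 1443 from 7 to 10, 732 from 10 to 20, and 92 had 20 or more. The 3 sites just inside the threshold had a −log10 q of 5.01, with 12, 15 and 16 summit reads. The 3 just outside had 4.99, 4.99 and 4.97, with 14, 14 and 18 summit reads. The −log10 q chose the sites, and these values are given as a description.

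The 12 sites of highest −log10 q lay on 9 chromosomes, and 11 of them had no V5 interval in any of the 8 V5 lists. The one at chr20:734465-734865 had 69 summit reads and a fold of 19.1. The one at chr17:26368245-26368821 had 64 reads and a fold of 15.1, and its nearest C4-2 RB interval was 147703 bases away. At chr22:45809289-45809730 there were 45 reads, a fold of 19.3 and a local background only 2.18 times the floor. The floor is the lowest background that recurs in the list, which stands for the genome-wide expectation. The background was 4.66 times the floor at chr21:47604332-47604688, 4.39 times at chr12:56367415-56367881, 5.30 times at chr7:100183798-100184388 and 3.35 times at chr17:17875758-17876164, each above the upper quartile of 2.85 over all strong VCaP-only sites. The highest fold of all strong VCaP-only sites, 21.7 with 48 reads, was at chr13:87602862-87603122, which lay 4396686 bases from the nearest C4-2 RB interval. It was also the 1 site of the 12 with a V5 interval, of 5 summit reads, in the WT doxycycline list. The remaining 4 stood on a background of more than 10 times the floor: chrY:58827160-58827552 (163 reads, fold 6.15), chrY:58834611-58834987 (125 reads, fold 5.78), chr17:22252030-22252371 (105 reads, fold 5.71) and chr11:63741629-63742513 (82 reads, fold 10.4).

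Strong VCaP-only sites were found on all 22 autosomes and on X and Y, densest on chromosome 19. Density was counted over the length from the start of each chromosome to the farthest interval end in the 10 lists. Stretches without any interval are part of this length. Chromosome 19, known as the most gene-rich chromosome, had 386 sites or 6.53 per Mb. Chromosome 17 followed with 3.89 per Mb and chromosome 11 with 2.57. The lowest densities were 0.457 per Mb on Y, 0.593 on X and 0.908 on chromosome 16. C4-2 RB intervals were also densest on 19 (7.34 per Mb) and 17 (6.21 per Mb). Across the 22 autosomes and X, the densities of strong VCaP-only sites and of all C4-2 RB intervals had a Pearson's r of 0.83 and a Spearman's rho of 0.64 (23 chromosomes, which share gene content and the 2 libraries).

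The share of strong VCaP sites that were VCaP-only differed between chromosomes. It was highest on chromosome 21, where 109 of 157 strong sites were VCaP-only (69.4%, Wilson interval 61.8 to 76.1), followed by Y (67.5% of only 40 strong sites) and chromosomes 13 (64.3%), 19 (64.1%) and 4 (63.8%). It was lowest on chromosome 16, with 82 of 208 sites (39.4%, Wilson interval 33.0 to 46.2). The chromosomes with the highest and the lowest share among the autosomes also had the highest and lowest VCaP local background. At weak VCaP-only sites its median was 2.31 times the floor on chromosome 21, the highest of all chromosomes, and 1.17 times on chromosome 16, the lowest. Chromosomes 13 and 4, with high shares, had middling backgrounds of 1.61 and 1.68 times, and Y had 1.29 times. Across 23 chromosomes, Y left out, the share and this background had a Pearson's r of 0.55 and a Spearman's rho of 0.39. DNA copy number was not measured, and its part in the share was not tested.

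**Figure D1:**
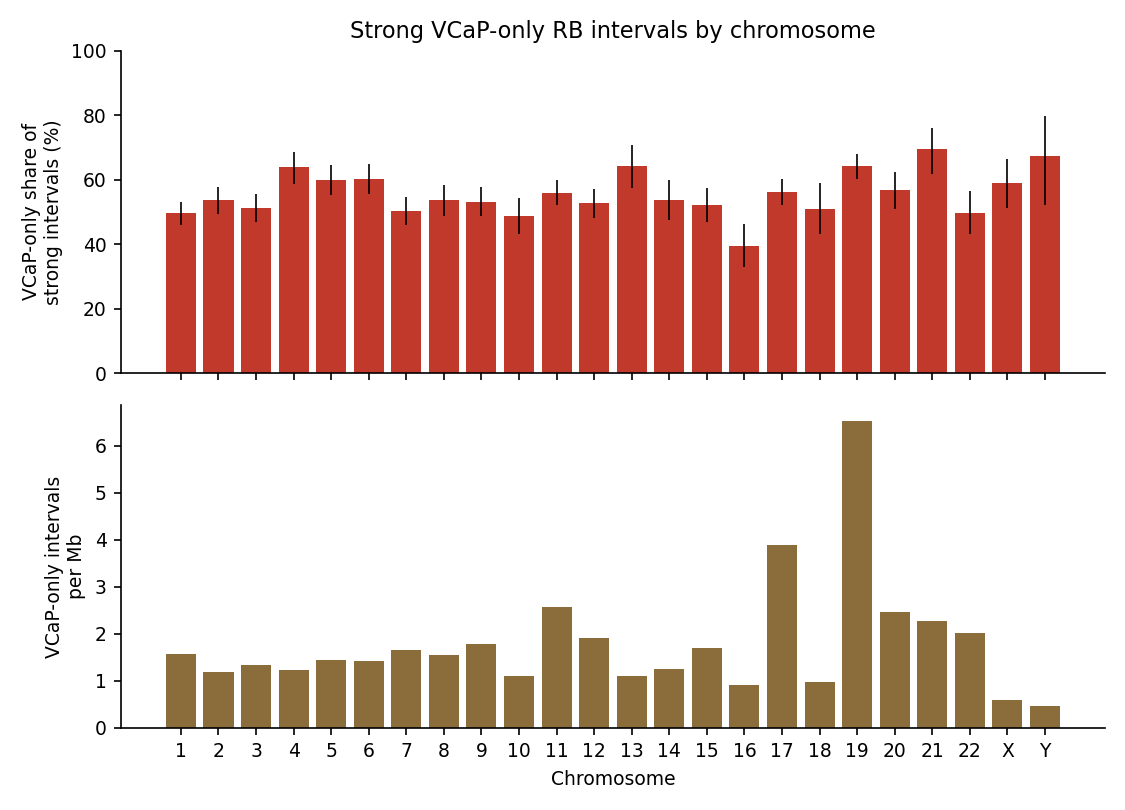
Strong VCaP-only RB sites by chromosome. The upper bars give their share of all strong VCaP RB sites in percent (lines, 95% Wilson intervals). The lower bars give their number per Mb, counted from the chromosome start to the farthest interval end. The share runs from 39.4% on chromosome 16 to 69.4% on chromosome 21, and the density is highest on chromosome 19 (6.53 per Mb).

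The sites were mostly far apart, with a few dense runs. The median gap between neighbours was 207980 bases (quartiles 68795 and 609933), and 208 of 4936 gaps were 10000 bases or less. In windows of 1 Mb, 1809 windows held at least 1 site, with a median of 2, and 15 windows held 15 or more. The densest window, chr11:64000001-65000000, held 29 strong VCaP-only sites beside 12 strong shared ones. It was part of a run of 5 windows, chr11:63000001-68000000, with 117 strong VCaP-only sites, which is 33.7% of those on chromosome 11. On chromosome 13, chr13:110000001-112000000 held 37 sites (29.4% of the chromosome's) beside 6 strong shared ones. These runs were chosen after their counts were seen. Among the other windows with 15 or more sites, 6 lay on chromosome 19, with 15 to 18 sites each, 1 at chr17:27000001-28000000 with 20, and 1 at chr6:28000001-29000000 with 15.

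Local background in VCaP was raised in some of these windows and not in others. In the chromosome 11 run the median background was 6.41 times the floor (range 2.25 to 16.8), and in the chromosome 13 run 7.01 times (4.36 to 25.4), against 2.05 times over the 4788 strong VCaP-only sites outside the runs described here. C4-2 RB intervals in the same runs had median backgrounds of 1.95 and 1.36 times the floor of their own list. Folds were lower than elsewhere, with medians of 5.41 and 4.87 against 6.21, while summit reads were higher, with medians of 27 and 26 against 14. A site in these 2 runs thus typically passed the threshold with more reads and a smaller fold over its surroundings. In the dense windows of chromosome 19 the median background was 2.08 to 2.82 times the floor, near that outside the runs. It was 2.78 times in the chromosome 6 window and 3.44 times in the chromosome 17 window.

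A window at the end of Y held 18 of the 27 strong VCaP-only sites on that chromosome, all between positions 58822107 and 58912791. Their background was 24.8 to 42.3 times the floor, with 54 to 163 summit reads, and the 20 C4-2 RB intervals in this window had a median background of 9.63 times their floor. The long arm of Y is known to end in satellite repeats, where reads of many repeat copies can map to a few positions. The other 9 sites on Y had backgrounds from the floor itself up to 5.03 times the floor. In all, the background reached 10 times the floor at 73 of the 4960 sites (1.47%), and 48 of the 73 lay in these 2 runs and the Y window.

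**Figure D2:**
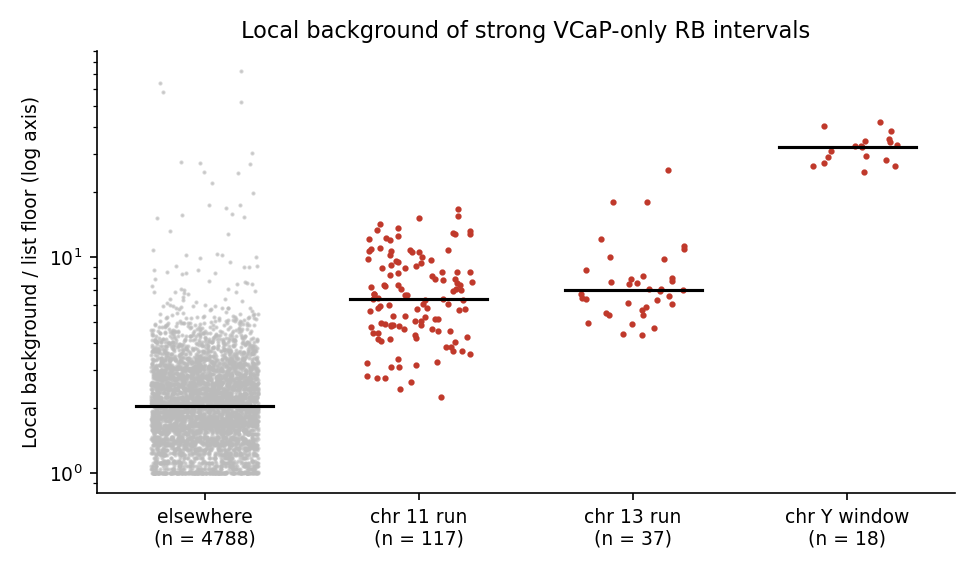
Local background of each strong VCaP-only RB site, as a multiple of the list's floor (log axis). Points are sites, black bars medians; the median is 2.05 outside the runs, 6.41 in the chromosome 11 run, 7.01 in the chromosome 13 run and 32.5 in the Y window.

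Most strong VCaP-only sites were far from any C4-2 RB interval. The median distance was 70197 bases (quartiles 23813 and 182475), and at weak VCaP-only sites it was 91577 bases. Within 100 kb of a C4-2 RB interval lay 2923 sites (58.9%), and within 1 Mb 4837 sites (97.5%). The other 123 sites were farther than this. The farthest were chrY:2803925-2804174, at 7115033 bases, chrY:21915379-21915618, at 6868743 bases, and chr13:67804491-67804769, at 6833838 bases. Each of these 3 had 11 or 13 summit reads and no V5 interval.

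A small group lay close to a C4-2 RB interval. There were 298 sites (6.01%) at less than 500 bases from one, but only 71 from 500 to 1000 bases and 121 from 1000 to 5000 bases. Weak VCaP-only sites had a like pattern, with 316 (4.56%), 92 and 89 at these distances. The sites chr6:134496148-134496633 and chr15:23086619-23086834 touched their C4-2 neighbour at 0 bases, and chr20:61283612-61283888 was 1 base away. The smallest interval width was 213 bases in the VCaP list and 100 bases in the C4-2 list. Whether near intervals of the 2 lists belong to the same peak was not tested. With no C4-2 RB interval allowed within 1000 bases, 4591 sites remained.

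**Figure D3:**
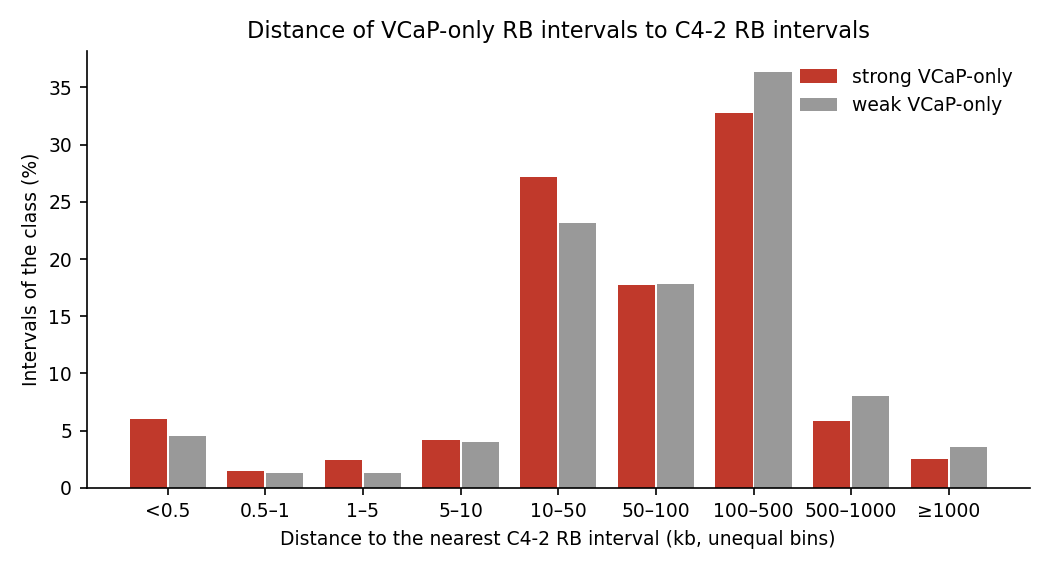
Distance of VCaP-only RB sites to the nearest C4-2 RB interval. Bars give the percent of strong (red) and weak (grey) VCaP-only sites in each distance bin in kb (bins of unequal width); 6.01% of strong sites lie under 0.5 kb, and the largest bin, 100 to 500 kb, holds 32.7% of them.

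Few strong VCaP-only sites had a V5 interval in C4-2 cells. V5 lists played no part in the choice of the sites. They came from C4-2, however, the line whose RB list set the classes, so they are not independent of the choice. In the WT lists, 71 sites (1.43%) had a V5 interval untreated, 44 (0.887%) under doxycycline, 66 (1.33%) under GSK2879552 and 94 (1.90%) under both. Over all 17026 VCaP RB intervals the same shares were 3.87%, 2.63%, 4.16% and 4.95%. In the K185R lists, 30 sites (0.605%) had one untreated, 14 (0.282%) under doxycycline, 14 (0.282%) under GSK2879552 and 1 (0.0202%, Wilson interval 0.00356 to 0.114) under both. The background for these was 2.09%, 1.42%, 1.81% and 1.05%. Every list thus met strong VCaP-only sites less often than VCaP RB intervals in general. A missing V5 interval means that none passed the authors' threshold, in lists whose median interval rested on 5 or 6 summit reads.

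Strong shared sites had V5 intervals far more often. In the WT lists, in the order above, 505 (12.4%), 324 (7.97%), 527 and 631 (15.5%) of the 4065 strong shared sites had one, and in the K185R lists 6.59%, 4.85%, 6.13% and 3.96%. The mean over 8 lists was 0.842% ± 0.661 (SD) at strong VCaP-only sites and 8.80% ± 4.27 at strong shared sites, a difference of −7.96 percentage points. Strong VCaP-only sites were lower in 8 of 8 lists (two-sided exact sign-flip permutation p = 0.00781, which no set of 8 lists can undercut, and 0.0156 adjusted over 2 such tests). The lists come from lines of a common parent under different treatments and do not replicate each other. All are from C4-2, whose RB intervals separate the classes, and how much of the difference follows from this was not tested. The difference shrank to −4.76 points when RB and V5 intervals on a background of 10 times the floor or more were removed, to −5.05 points with V5 intervals of −log10 q of at least 5, and to −4.74 points with only the top 1000 V5 intervals per list. It held its side in 8 of 8 lists in each case, with the same unadjusted p.

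**Figure D4:**
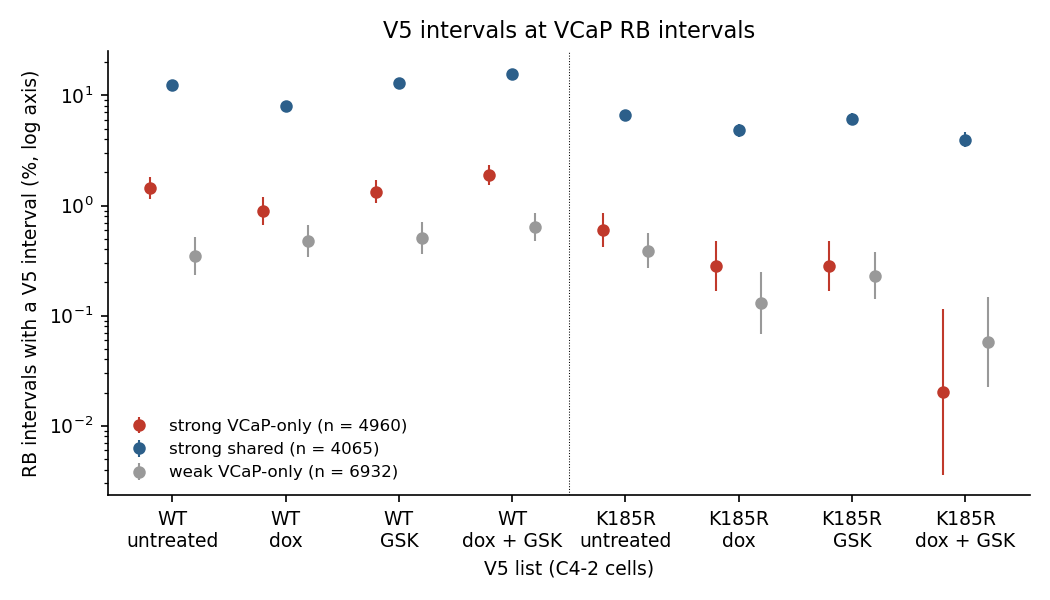
Share of VCaP RB sites with a V5 interval in each of the 8 V5 lists of C4-2 cells (log axis). Points are shares for strong VCaP-only (red), strong shared (blue) and weak VCaP-only sites (grey) with 95% Wilson intervals, which cover counting error only; red points lie below blue ones in all 8 lists and, in each treatment, higher in WT than in K185R.

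The gap was present at every strength of the RB interval. Among sites with a −log10 q from 5 to 7, 3.53% of 2693 strong VCaP-only sites had a V5 interval in any of the 8 lists (Wilson interval 2.89 to 4.29), against 17.4% of 1021 strong shared sites (15.2 to 19.9). From 7 to 10 the share was 4.37% (63 of 1443 sites) against 249 of 1081 strong shared sites, and from 10 to 20 it was 7.79% against 27.4%. At 20 or more they were 8.70% (8 of 92 sites, Wilson interval 4.47 to 16.2) and 41.8% (265 of 634). In both classes the share was higher in stronger bins, and in each bin the Wilson intervals of the classes did not overlap. Without sites of high background, the VCaP-only share was 7.73% from 10 to 20 and 7.59% at 20 or more, so this last step was no rise. At strong shared sites these shares were 26.2% and 36.4%. Wilson intervals treat sites as independent, which neighbouring sites are not. Of the 100 sites of highest −log10 q in each class, 8 VCaP-only and 62 shared sites had a V5 interval. These sets differ in strength, with a lowest −log10 q of 19.5 and 51.9, and 13 and 34 of their 100 sites stood on high background.

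**Figure D5:**
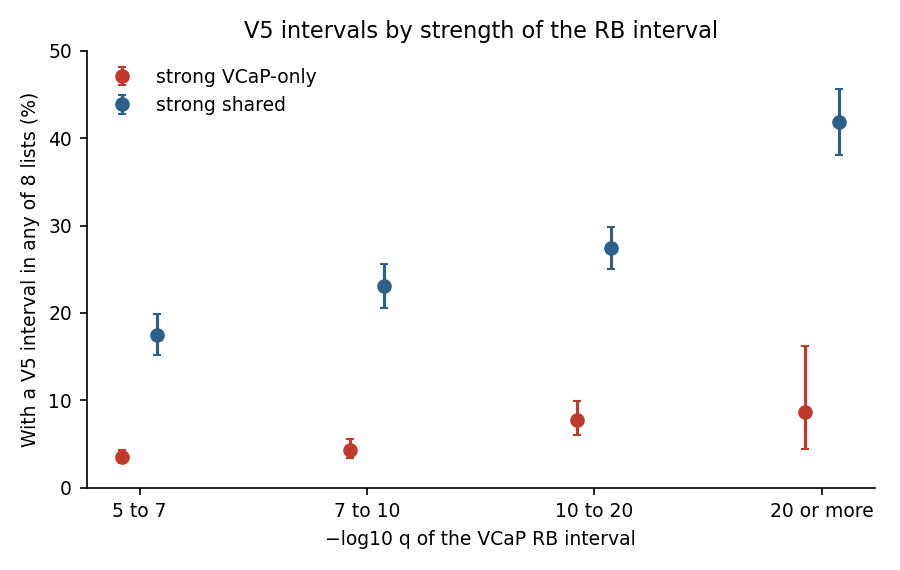
Share of strong VCaP RB sites with a V5 interval in any of the 8 lists, by −log10 q of the RB interval. Points are strong VCaP-only (red) and strong shared sites (blue) with 95% Wilson intervals; the red shares run from 3.53% to 8.70% and the blue ones from 17.4% to 41.8%.

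Strong VCaP-only sites had V5 intervals more often than weak ones on average, though few of either class did. The mean share over 8 lists was 0.842% against 0.346% ± 0.197 (SD), a difference of 0.50 points, with the strong sites higher in 7 of 8 lists (two-sided exact sign-flip permutation p = 0.0156, and 0.0156 adjusted over 2 tests). The exception was the K185R list with both treatments, at 1 strong and 4 weak sites. This test was added after the data had been seen. The difference was 1.16 points at a −log10 q of at least 10 but 0.252 points or less with summits within 100 bases or with the stronger V5 intervals alone. Both shares fell in the latter cases, to 0.431% against 0.179% with summits within 100 bases. They were 0.249% against 0.0829% with V5 intervals of −log10 q of at least 5, and 0.194% against 0.0721% with the top 1000 V5 intervals per list.

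V5 intervals at these sites were more frequent in WT than in K185R lists on average, a difference that did not pass adjustment. It was smaller in percentage points with lists of equal length, where the shares of both proteins fell. WT lists covered 1.39% ± 0.414 (SD) of the sites and K185R lists 0.297% ± 0.239, a difference of 1.09 percentage points (two-sided exact permutation p = 0.0286, n = 4 lists against 4, the smallest this design can give). After adjustment over 3 factors the p was 0.0857, which does not pass 0.05. With the lists as deposited, WT was higher in 4 of 4 treatments (exact permutation p = 0.125 from flipped signs, the lowest value 4 pairs allow). K185R lists were the deeper ones on average, at 1.19 reads per kilobase against 1.03, and in untreated and GSK2879552-treated cells also the longer ones. Untreated, the WT list alone met 61 sites, the K185R list alone 20, and 10 were met by both. With both treatments these numbers were 93, 0 and 1. Leaving out any 1 list gave an exact permutation p of 0.0571, the smallest that 3 lists against 4 can give. The difference was 2.09 points at a −log10 q of at least 10, 0.590 with summits within 100 bases, 0.328 with V5 intervals of −log10 q of at least 5 and 0.237 with the top 1000 V5 intervals per list (exact permutation p = 0.0857 before adjustment). In this last case the mean shares were 0.3125% in WT and 0.0756% in K185R lists. The doxycycline pair turned there, with 0.0806% of sites in WT and 0.101% in K185R. The deposited doxycycline lists held 64025 and 22328 intervals.

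WT lists were also higher on average in the other classes, by 6.84 percentage points at strong shared sites and by 0.289 points at weak VCaP-only sites. Whether the WT to K185R difference itself differed between classes was not tested.

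Averaged over WT and K185R lists, neither treatment gave a difference at strong VCaP-only sites that stood out from the spread between lists. Each side mixed lists of both proteins, so this spread included the WT to K185R difference, and opposite changes would cancel. With the other treatment present, GSK2879552 changed the share by 1.01 points in WT and −0.262 in K185R, and doxycycline by 0.565 and −0.262. Without it, GSK2879552 changed the share by −0.101 and −0.323, and doxycycline by −0.544 and −0.323. Each change compares single lists. The mean share was 0.882% ± 0.881 (SD) in the 4 GSK2879552 lists and 0.801% ± 0.487 in the 4 others (exact permutation p = 0.943, n = 4 lists against 4). Doxycycline lists had a mean of 0.771% ± 0.833, and the 4 lists lacking it 0.912% ± 0.559 (exact permutation p = 0.829). Both had an adjusted p of 0.943, and both differences changed sign when single lists were left out. GSK2879552 lists were shallower, at 0.847 reads per kilobase on average against 1.38.

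The V5 intervals at strong VCaP-only sites were mostly found in a single list. Of the 223 sites with any V5 interval (4.50%, Wilson interval 3.95 to 5.11, against 9.23% of all VCaP RB intervals), 158 had one in 1 list, 40 in 2, 13 in 3 and 12 in 4 or more. At strong shared sites 1056 (26.0%) had one, and 52.5% of these had one in at least 2 lists, against 29.1% at strong VCaP-only sites. By protein, 175 of the 223 sites were met by WT lists only, 25 by K185R lists only and 23 by both. WT lists alone also met most such sites in the other classes. Of the 1056 strong shared sites, 711 were met by WT lists only, 42 by K185R lists only and 303 by both. Of 132 weak VCaP-only sites with a V5 interval, the numbers were 84, 30 and 18. Of the 66 sites met in the WT GSK2879552 list and the 94 in the WT list with both treatments, 22 were the same, which is 33.3% and 23.4% of them. Between the untreated and doxycycline WT lists 17 were the same, 23.9% of 71 and 38.6% of 44. Such overlaps between lists are not given here for the other classes.

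These V5 intervals rested on few reads. Their median summit had 6 or 7 reads in 7 of the lists, against 5 or 6 over the whole of each list, and the 1 interval of the K185R list with both treatments had 228. At strong shared sites the V5 medians were 8 to 15 reads in the WT lists and 30 to 67 in the K185R lists. These medians include sites of high background, and medians without them are not given here. Without such RB sites, the mean share of strong shared sites with a V5 interval fell from 12.2% to 10.7% in WT lists. In K185R lists it fell from 5.38% to 3.60%. Strong VCaP-only sites took up 2.43% of the WT list with both treatments and 2.35% of the WT GSK2879552 list, but 0.470% or less of each other list. Strong shared sites likewise took up 16.4% and 18.9% of these 2 lists, and 0.497% to 4.66% of each other list. The 2 lists held 3874 and 2805 intervals, against 15099 and 64025 in the other WT lists and 3498 to 55681 in K185R lists. In 171 of 334 cases of a site met by a list (51.2%), the V5 and RB summits were within 100 bases of each other. With this condition the mean share over 8 lists fell from 0.842% to 0.431% at strong VCaP-only sites. It fell from 8.80% to 5.92% at strong shared sites and from 0.346% to 0.179% at weak VCaP-only sites.

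Sites next to a C4-2 RB interval had V5 intervals more often than distant ones. Of the 298 sites closer than 500 bases, 31 had a V5 interval in any list (10.4%, Wilson interval 7.43 to 14.4). Of the 4591 sites at 1000 bases or farther, 188 had one (4.09%, Wilson interval 3.56 to 4.71). Without sites of high background these shares were 10.1% and 4.02%. In the WT list with both treatments, 15 of the 298 near sites (5.03%) and 77 of the 4591 far sites (1.68%) were met. The shares were higher for near sites in each of the 8 lists, though the K185R list with both treatments rested on 1 site. This comparison was picked with the values known, and sites are not replicates, so no test was made.

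Only 5 strong VCaP-only sites had a V5 interval in 5 or more of the 8 lists, and 3 of them stood on a very high background. The site chr16:46391190-46391616 was met in all 8 lists. It had 123 RB summit reads at a fold of 2.63, and its V5 intervals had 198 to 288 reads at folds of 1.46 to 1.69 and backgrounds of 626 to 939 times the floor of their list. Nearby, chr16:46399532-46399750 was met in 5 lists at V5 folds of 1.49 to 1.65. The site chrY:58865930-58866161, with an RB background of 27.1 times the floor, was met in 5 lists with 14 to 31 V5 reads. Its V5 intervals differed from those on chromosome 16, with folds of 6.63 to 11.6 on backgrounds of 6.43 to 9.65 times the floor. Repeat content was not tested at these sites.

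The other 2 stood on lower RB backgrounds, 2.99 times the floor on chromosome 4 and 4.86 times on chromosome 8. Both values were above the upper quartile of 2.85 over all strong VCaP-only sites. At chr4:103423358-103423618 the RB interval had 14 reads, a fold of 5.18 and no C4-2 RB interval within 156628 bases. All 4 WT lists met it, with 11 summit reads untreated, 8 under doxycycline, 10 under GSK2879552 and 7 under the combination. So did the untreated K185R list, with 6 reads, and the K185R doxycycline list, with 7. At chr8:136469267-136469579 the RB interval had 18 reads and a C4-2 RB interval lay 67 bases away. The WT lists had 10, 8, 14 and 9 reads there in the same order, and the K185R GSK2879552 list had 7.

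A further 3 sites, singled out after their values were seen, had a V5 interval in all 4 WT lists and in no K185R list. At chr16:67063089-67063301 the WT lists had 14, 13, 18 and 16 reads, in the same order, at folds of 6.68 to 11.2, and the nearest C4-2 RB interval was 35 bases away. At chr13:37574755-37575120 they had 8, 7, 7 and 8 reads, with a C4-2 RB interval at 1187 bases. At chr17:7465054-7465272 they had 5, 4, 11 and 7 reads, and the C4-2 RB interval was at 11802 bases. In all, 6 strong VCaP-only sites were met by all 4 WT lists.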

How the data were processed

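Per the submitters' processing notes, reads were handled with BWA 0.7.9a, MACS2 2.1.0, FastQC 0.11.9 and SAMtools 1.2 on the build hg19; for settings and any control library, nothing is stated in the labels. The authors deposited 1 interval list per group, 10 lists from 19 libraries, with a fold enrichment (a linear ratio), a −log10 p and −log10 q, and a display score of 10 times the −log10 q. Interval names say that V5 libraries were merged. Those of C4-2 RB carry a single library name although 2 libraries are labelled, so the list, and each VCaP-only call, may rest on 1 of them. As the lists cannot be compared by replicate, exact permutation tests took the list as the unit. Overlap was at least 1 base, and distances are bases between interval ends.

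Summit reads and local background were solved from the deposited fold (1 read added to both terms) and −log10 p, with a largest misfit of 0.000163 in the VCaP list; at least 99.9% of simulated summit reads were recovered in each list. The floor is the lowest background shared by 5 or more intervals, and depth is the floor per fragment length (smallest width): 2.98 reads per kilobase in VCaP, 8.21 in C4-2 RB and 0.716 to 1.79 in the V5 lists. Wilson intervals (95%) cover counting error only, and reads without molecular identifiers are not independent molecules.

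Named sites were the 12 of highest −log10 q, 3 on each side of the threshold, the 3 closest to and farthest from C4-2 intervals, and those met by 5 or more V5 lists. The sites, lists and rules were chosen with earlier results of these data known. Shares near gene starts and sequence content, which needed hg19 annotation, were not analysed here. Python 3.11.15 with numpy 2.4.6, pandas 2.3.3 and scipy 1.17.1 was used. One further stretch of sites is not reported here.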

Additional observations from a re-analysis of the deposited data

Results flagged for a closer look

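In lists with doxycycline, the share of strong VCaP-only sites with a V5 interval was higher with GSK2879552 than without in WT (1.90% against 0.887%) and lower in K185R (0.0202% against 0.282%). The WT change exceeded the K185R change by 1.27 percentage points. In lists with GSK2879552, the share was higher with doxycycline in WT (1.90% against 1.33%) and lower in K185R (0.0202% against 0.282%), and the WT change exceeded the K185R change by 0.827 points. Each change rests on 1 list against 1, both share the lists with both treatments, and the differences were not tested.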

How the results depend on the processing

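With a −log10 q of at least 10, 824 strong VCaP-only sites were left, against 4960. The differences in V5 share between strong VCaP-only and strong shared sites and between strong and weak VCaP-only sites kept their direction and stayed under an adjusted p of 0.05 in all alternatives run. The mean WT to K185R difference kept its direction, but its adjusted p cannot fall below 0.0857 in this design, so the threshold says nothing of its stability. Leaving out each list in turn, these 3 differences ranged from −8.53 to −7.15, from 0.386 to 0.572 and from 0.919 to 1.26 points. The GSK2879552 difference ranged from −0.257 to 0.368 points and turned without the WT GSK2879552 list, the WT list with both treatments or the K185R doxycycline list. The doxycycline difference ranged from −0.516 to 0.109 points and turned without the untreated WT, the K185R doxycycline or the K185R list with both treatments. The alternatives without chromosome Y, with the 1000 strongest V5 intervals and without high background in both kinds of interval were added after seeing the data. The part of V5 depth in these shares was not tested; the highest share was in a list of 0.812 reads per kilobase and the deepest list, at 1.79, had 0.605%. No paired analysis was possible because the lists carry no replicate numbers; pairs of WT and K185R lists were matched by treatment only. Shares near gene starts were not run, as no hg19 annotation was used.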
